A study of Mus musculus with 6 samples.

Results

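The genes described here are the 7 MHC class II genes of the mouse that were taken by name from a table of 21512 genes: Cd74, H2-Aa, H2-Ab1, H2-Eb1, H2-DMa, H2-DMb1 and Ciita. Their identifiers in the table are ENSMUSG00000024610, ENSMUSG00000036594, ENSMUSG00000073421, ENSMUSG00000060586, ENSMUSG00000037649, ENSMUSG00000079547 and ENSMUSG00000022504, in that order. All 7 were in the table and all 7 passed the filter on low values. RNA was measured in whole liver of 6 C57BL/6J mice in which MASH (fatty liver disease with inflammation) and fibrosis were induced by high-fat feeding plus the liver toxin carbon tetrachloride (HFD/CCl4) over 12 weeks. Through that period anti-PD-1 was given every 3 days to 3 of the mice, called treated below, and an isotype antibody to the other 3, called controls. PD-1 is a receptor through which activated T cells are inhibited. Both groups carried the diet and the toxin, so no untreated liver enters the comparison. For treated mice 2 and 3 the treatment entry does not read PD-1 (it counts upward after "PD"), but the titles do, and the titles were followed. Age and sex are not given in the sources used here.

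MHC class II molecules present peptides from engulfed proteins to CD4+ T cells. An alpha and a beta chain pair in the endoplasmic reticulum around the invariant chain, encoded by Cd74, which blocks the groove and steers the complex to endosomes. There proteases trim the invariant chain, and the H2-DM heterodimer exchanges its last fragment for peptide. Ciita encodes the coactivator that switches the whole set on. It binds no DNA itself but docks on RFX, CREB and NF-Y proteins that sit on paired X and Y boxes of class II promoters. The Ciita gene is driven constitutively in dendritic cells and B cells and by interferon-gamma in many other cells. In C57BL/6 mice the I-A molecule (H2-Aa with H2-Ab1) is the one at the cell surface, because the alpha chain gene of I-E is not functional in this strain and the H2-Eb1 chain lacks its partner.

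The X and Y boxes can be read in RefSeq promoter sequence (GRCm38.p6, an older build than the GRCm39 the submitters name), which was at hand for 4 of the 7 members and for 4 further class II genes. The stretches below are shown because they hold the letters of the elements through which the Ciita protein is known to act. Each is 67 bases on the gene's own strand, upstream of the annotated start. Capitals mark an X core (AACNNATG) or, in H2-Aa, a cyclic AMP response element (TGACGTCA), followed by a Y core (ATTGG). In H2-Oa only the Y core was matched.
H2-Aa, chr17:34287855-34287921, minus strand: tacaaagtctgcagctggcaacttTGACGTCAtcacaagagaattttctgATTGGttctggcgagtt
H2-Eb1, chr17:34305758-34305824, plus strand: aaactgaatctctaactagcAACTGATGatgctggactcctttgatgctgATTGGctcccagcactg
H2-DMb1, chr17:34153080-34153146, plus strand: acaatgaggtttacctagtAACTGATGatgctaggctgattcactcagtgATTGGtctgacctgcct
H2-DMb2, chr17:34145109-34145175, plus strand: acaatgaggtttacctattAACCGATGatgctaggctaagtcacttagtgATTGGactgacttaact
H2-Eb2, chr17:34325525-34325591, plus strand: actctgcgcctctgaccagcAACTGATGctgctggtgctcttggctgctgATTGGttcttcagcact
H2-Ob, chr17:34238798-34238864, plus strand: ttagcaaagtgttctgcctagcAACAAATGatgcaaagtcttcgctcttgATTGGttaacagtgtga
H2-Oa, chr17:34092286-34092352, plus strand: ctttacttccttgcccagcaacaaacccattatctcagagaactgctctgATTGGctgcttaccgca

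In H2-Eb1, H2-DMb1, H2-DMb2, H2-Ob and H2-Eb2 the X core was followed by the Y core after 20 to 23 bases, and in H2-Aa the response element was followed by it after 18. The Y core began 48 bases before the annotated start in H2-Aa, 59 in H2-Eb1 and 61 in H2-DMb1. Among 32851 mouse promoter windows of 300 bases, 8.86% held the X core on either strand, 37.4% the Y core and 1.79% the response element. An X core followed by a Y core at a distance of 15 to 25 bases was found in 19 of these windows (0.0578%), and the response element followed by a Y core at that distance in 24 (0.0731%). The letters and the distance were set with the class II promoters in view, and a match is not a measured binding site. The H2-DMa table entries, 2 alternative starts, held no such pair. Cd74, H2-Ab1 and Ciita had no entry.

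Levels are given as deposited, as CPM (counts scaled to library size) of a library scaled by trimmed-mean factors, called units below. Each library held 15528364 to 20779319 reads, and 3 reads corresponded to 0.144 to 0.2 units. For scale, the albumin gene Alb of hepatocytes was at 46646 to 69086 units over the 6 libraries. Anti-PD-1 replicate 1 stood apart from the other 5 libraries on the members. It was the highest of the 6 libraries for each of the 7 members, as it was for 17.7% of the 13990 genes tested, so results are given with and without it.

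Cd74, the invariant chain gene, had the most reads of the 7 members in every liver. It was at 59.5, 86.4 and 60.2 units in the 3 control livers and at 708, 134 and 148 units in the 3 anti-PD-1 livers. Every anti-PD-1 liver lay above every control liver. Relative to the control mean of 68.7 ± 15.4 (SD, n = 3), anti-PD-1 replicate 1 was 10.3-fold higher, replicate 2 was 1.95-fold higher and replicate 3 was 2.15-fold higher. The fitted log2 difference was 1.83 ± 0.58 (SE), with an adjusted p of 0.33 by limma. Without anti-PD-1 replicate 1 it was smaller but tighter, 1.05 ± 0.18, with an adjusted p of 0.0846.

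H2-Aa and H2-Ab1 encode the alpha and beta chains of I-A. H2-Aa was at 38.7, 54.7 and 44.1 units in controls, against 516, 61.6 and 77.0 units in treated livers. H2-Ab1 was at 25.7, 37.1 and 27.4 units in controls, against 257, 39.8 and 49.4 units in treated livers. Neither gene's groups overlapped, but in anti-PD-1 replicate 2 both lay only just above the highest control. H2-Eb1, the I-E beta chain, was at 20.4, 31.1 and 30.6 units in controls, against 320, 41.0 and 51.0 units in treated livers. Anti-PD-1 replicate 1 exceeded the control mean 11.3-fold for H2-Aa, 8.56-fold for H2-Ab1 and 11.7-fold for H2-Eb1, whereas replicates 2 and 3 were 1.32- to 1.86-fold higher. The adjusted p by limma was 0.461, 0.451 and 0.419 for these 3 genes.

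The genes of the H2-DM heterodimer, the peptide editor, had fewer reads than the chains. H2-DMa was at 3.67, 3.79 and 2.97 units in controls, against 29.0, 4.13 and 5.54 units in treated livers, a narrow separation in replicate 2 that corresponds to 62 reads there against 70 in control replicate 2 before scaling. H2-DMb1 was at 4.64, 5.25 and 4.12 units in controls, against 32.7, 7.86 and 7.14 units in treated livers. The anti-PD-1 livers again all lay above the controls, with H2-DMb1 1.68- and 1.53-fold above the control mean in replicates 2 and 3. The log2 difference of H2-DMb1 was 1.32 ± 0.51 (SE), with an adjusted p of 0.403 by limma and 0.0419 by DESeq2. In the reference transcripts, 27.2% of the 50-base stretches of H2-DMb1 also occur in its neighbour H2-DMb2, so part of its reads may have been divided between these paralogs, while the other 6 members share no such stretch with another gene.

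Ciita was the member whose groups overlapped. It was at 5.4, 5.79 and 3.67 units in controls, against 27.5, 4.59 and 4.04 units in treated livers. Anti-PD-1 replicate 1 was 5.56-fold above the control mean, but replicates 2 and 3 lay inside the control range, at 0.928 and 0.815 of that mean. The fitted log2 difference of 0.69 ± 0.64 (SE, limma adjusted p = 0.714) turned to -0.16 ± 0.23 without anti-PD-1 replicate 1 (adjusted p = 0.803). Ciita overlaps the gene Dexi on the opposite strand and H2-DMa overlaps Brd2 in the same way. Whether the counting used strand is not given in the sources used here. Dexi was at 8.17 to 13.3 units and Brd2 at 59.6 to 68.0 units over the 6 livers.

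**Figure D1:**
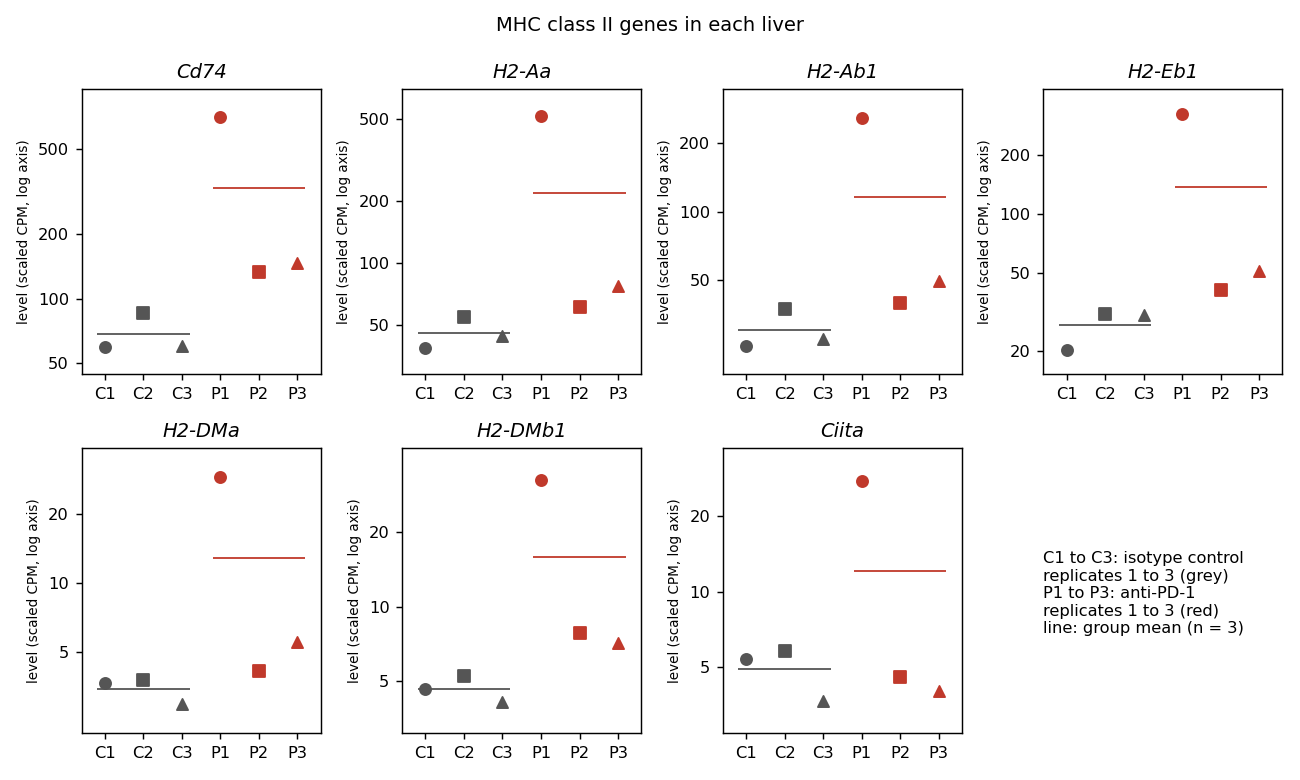
Level of each member in each liver, in units of scaled CPM on a log axis. Grey points are the 3 isotype control livers, red points the 3 anti-PD-1 livers (circle, square and triangle for replicates 1, 2 and 3), and lines are group means. Anti-PD-1 replicate 1 is far above the rest in all 7 panels, and replicates 2 and 3 clear the controls in every panel except Ciita.

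In 6 of the 7 members all 3 anti-PD-1 values lay above all 3 control values, against 7.13% of all genes tested. The levels of these 6 members went up and down together over the livers, as given below. Neither this count nor those that follow is therefore a count of separate results. No member passed an adjusted p of 0.05 in the limma fit over 13990 genes, where 1 gene in all (0.00715%) was called higher and 0 lower. At an unadjusted p under 0.05, 3 members were higher (Cd74, H2-Eb1 and H2-DMb1), against 5.04% of all genes. By DESeq2 1 member, H2-DMb1, was called higher, against 1.08% of all genes (0.786% were called lower), and by edgeR 0 members were called, with 6 of 7 at an unadjusted p under 0.05 (5.68% of all genes). With replicate number as a block, 0 members were called, while the count over all genes was 27 higher (0.193%) and 13 lower (0.0929%). Exact permutation of 3 against 3 livers cannot give a p under 0.1, so the model p-values are the ones reported.

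The median log2 difference of the 7 members was 1.41, beside 0.0027 over all genes tested. Ordered by fitted difference over the 13990 genes, Cd74 ranked 17, H2-Eb1 27, H2-Aa 37, H2-Ab1 61, H2-DMb1 80, H2-DMa 99 and Ciita 549. Within anti-PD-1 replicate 1 alone, set against the control mean, the members ranked between 10 and 52. The same ranks were 195 for Cd74, 319 for H2-Eb1 and 454 for H2-Aa in replicate 3, and 372, 1066 and 1705 in replicate 2. The remaining members ranked 494 (H2-Ab1), 704 (H2-DMa), 802 (H2-DMb1) and 10842 (Ciita) in replicate 3, and 1810, 3371, 799 and 8394 in replicate 2. All 7 members stood near the top of the list in 1 liver. In the other two, 6 ranked lower but in the upper part of the list, and Ciita in its lower part.

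Without anti-PD-1 replicate 1 the members' median was 0.60 (0.0056 over all genes). In that fit 0 members passed the adjusted threshold, which 24 genes (0.172%) passed in the higher direction and 6 (0.0429%) in the lower. At an unadjusted p under 0.05, 5 members were higher in that fit (Cd74, H2-Aa, H2-Ab1, H2-Eb1 and H2-DMb1), against 8.01% of all genes. The standard errors fell from between 0.51 and 0.71 with all livers to between 0.17 and 0.23, so leaving out the liver with the highest levels lowered the differences and the spread together. That liver was singled out by its values for these same genes. The p-values of the fit without it, here and for single genes, are therefore descriptions only.

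**Figure D2:**
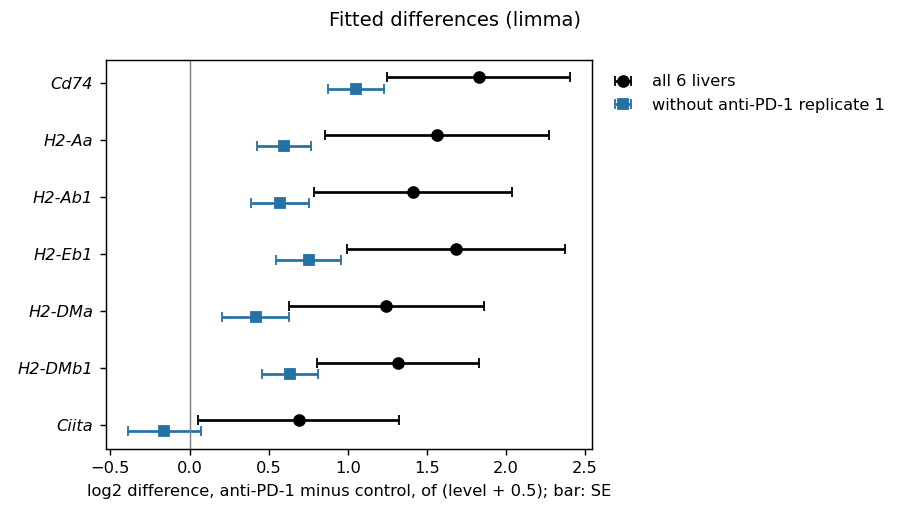
Fitted log2 difference, anti-PD-1 minus isotype control, of each member on the log2(level + 0.5) scale, with bars for the standard error. Black circles use all 6 livers and blue squares leave out anti-PD-1 replicate 1. The differences of 6 members stay positive and shrink, from 1.83 to 1.05 for Cd74, and that of Ciita moves from 0.69 to -0.16.

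Ratios between members within 1 liver, chosen with the values known, do not depend on the scaling between libraries. Cd74 over Ciita was 11.0, 14.9 and 16.4 in controls, against 25.7, 29.1 and 36.6 in treated livers. All 3 anti-PD-1 livers lay above the controls here, replicate 1 included, and the anti-PD-1 mean was 2.16 times the control mean. Leaving out each liver in turn, a check added after the values were seen, gave 1.94 to 2.35 times. Cd74 over H2-Ab1 was 2.32, 2.33 and 2.19 in controls, against 2.75, 3.36 and 2.99 in treated livers. Its ratios to H2-DMa and H2-DMb1 were separated too, with means of 19.8 ± 3.33 and 14.6 ± 1.83 in controls, against 27.9 ± 4.10 and 19.8 ± 2.46 in treated livers (SD, n = 3). In each of these ratios the treated livers all lay above the controls. The two-sided exact permutation p was 0.1 for these 4 ratios, the smallest that 3 against 3 can give, and 0.15 after Benjamini-Hochberg adjustment over the 6 ratios computed. All 6 ratios share Cd74, the member with the largest fitted difference by limma, set against members with smaller ones. Separation was partly settled by that choice, so these p-values are descriptions only. The share of separated ratios over other gene pairs was not computed. Cd74 over H2-Aa (1.49 ± 0.115 and 1.82 ± 0.409) and over H2-Eb1 (2.55 ± 0.509 and 2.79 ± 0.531) overlapped between groups, with exact permutation p-values of 0.3 and 0.6.

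**Figure D3:**
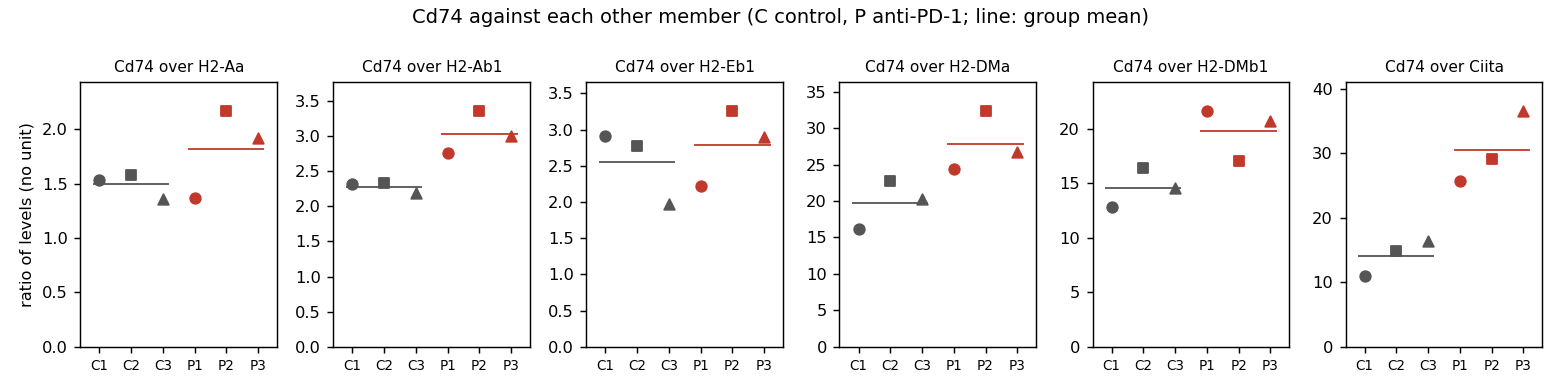
Ratio of the Cd74 level to that of each other member in each liver, without unit, on axes that start at 0. C1 to C3 are isotype control and P1 to P3 anti-PD-1 livers, and lines are group means. The groups are apart for H2-Ab1, H2-DMa, H2-DMb1 and Ciita, where the ratio to Ciita goes from 11.0 to 16.4 in controls to 25.7 to 36.6 in treated livers.

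The I-A alpha to beta ratio was 1.51, 1.47 and 1.61 in controls, against 2.00, 1.55 and 1.56 in treated livers, so that replicates 2 and 3 lay within the control range. The ratio of H2-DMa to H2-DMb1 overlapped between groups, at 0.720 to 0.791 in controls, against 0.525 to 0.887 in treated livers. Over the 6 livers the log2 levels of the members other than Ciita correlated pairwise at Pearson r = 0.967 to 0.999. With anti-PD-1 replicate 1 left out, those values were 0.699 to 0.992 over 5 livers. For Ciita the correlations with the others were 0.87 to 0.95 over 6 livers and -0.496 to -0.0194 over 5. The points share library scaling and few livers, and these correlations are descriptions only.

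Per kilobase of the longest coding transcript in the reference annotation, the order of mean control levels was Cd74 (48.7 ± 10.9), H2-Aa (40.6 ± 7.19), H2-Ab1 (24.8 ± 5.08), H2-Eb1 (16.4 ± 3.60), H2-DMb1 (3.33 ± 0.401), H2-DMa (1.73 ± 0.221) and Ciita (0.824 ± 0.188) units per kilobase (SD, n = 3). Cd74 lay above H2-Aa in each control liver (42.2, 61.3 and 42.7 against 34.3, 48.4 and 39.1), although the ranges of these genes over the livers overlapped. With the length of all merged exons in place of that transcript the classical chains changed places (H2-Eb1 14.1, H2-Aa 12.1 and H2-Ab1 11.7), while Cd74 (40.9) stayed first and the H2-DM chains and Ciita stayed last.

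The other class II genes of the list, which encode H2-DM and H2-O chains and a second I-E beta chain, were scarce. H2-DMb2, paralog of H2-DMb1, was at 1.29, 1.19 and 0.955 units in controls, against 5.00, 1.46 and 1.40 in treated livers. H2-Ob, a chain of the H2-O inhibitor of peptide exchange that is best known from B cells, was at 1.56, 2.54 and 1.86 units and at 5.04, 1.33 and 2.02 units. In replicates 2 and 3 H2-Ob did not exceed the highest control. H2-Oa (3 to 16 reads in controls, 61, 7 and 7 in treated livers) and H2-Eb2 (5 to 14, and 38, 4 and 4) did not pass the filter. For H2-DMb2 and H2-Ob the limma adjusted p was 0.548 and 0.84. The summed level of the 4 genes was 3.22 to 5.25 units in controls, 14.8 in anti-PD-1 replicate 1 and 3.53 and 3.98 in replicates 2 and 3. The summed members, by contrast, were at 158 to 224 units in controls, against 1891, 293 and 342 units in treated livers.

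Of 12 genes for DNA-binding partners and coactivators of the Ciita protein, all tested, 0 passed the adjusted threshold by limma, edgeR or DESeq2. The differences of 3 were positive, with a median of -0.06. The RFX subunit genes Rfx5 and Rfxap were at 14.2 to 17.6 and 4.27 to 4.48 units in controls, against 12.7 to 17.4 and 3.94 to 4.76 in treated livers. At an unadjusted p under 0.05, 2 genes were lower (6.24% of all genes were) and 0 higher. These were Nfya, the NF-Y subunit gene (9.81 ± 1.78 units in controls, 7.01 ± 0.987 in treated livers), and Creb1, the CREB gene (34.6 ± 5.33 in controls, 25.8 ± 5.62 in treated livers; SD, n = 3). Their limma adjusted p was 0.414 and 0.431.

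Upstream of Ciita, 10 of 12 genes of interferon-gamma signalling were tested, of which 0 were called by limma or edgeR and 1, Ptpn2, was called higher by DESeq2 (adjusted p = 0.0288; 1.08% of all genes). At an unadjusted p under 0.05 by limma 2 were higher (5.04% of all genes) and 0 lower, and the median was 0.22, or 0.05 without anti-PD-1 replicate 1. Ptpn2, a phosphatase that dampens cytokine signalling and 1 of these genes, was at 12.0, 12.3 and 13.4 units in controls, against 17.4, 17.6 and 20.5 units in treated livers (limma adjusted p = 0.244). Unlike the class II genes, Ptpn2 did not stand out in anti-PD-1 replicate 1. Irf1, which acts on an interferon-driven Ciita promoter and was named here after its values were seen, was at 43.8 units in anti-PD-1 replicate 1 and at 12.9 and 13.1 in replicates 2 and 3, against 13.1 to 24.1 in controls. Ifng itself had 1, 2 and 1 reads in controls, against 15, 1 and 0 in treated livers, which is at or under 3 reads in every liver but 1.

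Among 7 lineage factors of Ciita, all tested, 0 were called by limma, edgeR or DESeq2 and 1 was higher at an unadjusted p under 0.05, as were 5.04% of all genes (median 0.65, and 0.25 without anti-PD-1 replicate 1). This was Spi1, the myeloid factor PU.1, at 4.8, 3.19 and 3.17 units in controls, against 13.6, 5.46 and 6.31 in treated livers (limma adjusted p = 0.348). Irf8, a factor of dendritic cells and macrophages, was at 10.6 to 14.1 units in controls, against 37.0, 13.9 and 15.5 in treated livers.

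Of 20 genes for antigen processing, class II turnover and co-stimulation, 17 were tested, 0 were called by limma, edgeR or DESeq2, and 1 was higher at an unadjusted p under 0.05, a share near the 5.04% of all genes (median 0.14, and 0.05 without anti-PD-1 replicate 1). This was Cd86, a co-stimulatory ligand, at 4.8, 3.52 and 3.17 units in controls, against 12.5, 6.99 and 4.81 in treated livers (limma adjusted p = 0.374). Ctss, the protease cathepsin S that cleaves the invariant chain, was at 79.7, 45.6 and 41.2 units in controls, against 274, 53.3 and 82.5 in treated livers, with overlapping groups. Marchf1, a ligase that removes class II from the surface, was likewise overlapping, at 6.98 to 10.4 units in controls, against 23.8, 6.13 and 8.48 in treated livers (named after its values were seen).

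Class II RNA in whole liver can come from several cell types, and in bulk tissue more cells of a type and more RNA per cell cannot be told apart. Summed markers common to leukocytes (6 genes) were at 197 to 284 units in controls, against 517, 244 and 263 in treated livers. Those common to macrophages (8 genes) were at 218 to 349 and at 693, 263 and 306 units, and those of monocytes and recruited macrophages (10 genes) at 161 to 388 and at 923, 184 and 293 units. All 3 lists were high in anti-PD-1 replicate 1, and within the control range in the other two. Of their 24 genes, 22 were highest in that liver. Dendritic cell markers (10 genes) summed to 26.6 to 28.3 units in controls and to 50.3, 21.4 and 24.4 in treated livers, and B cell markers (10 genes) to 14.6 to 25.7 and to 30.1, 12.98 and 15.9. In replicates 2 and 3 the dendritic cell sum lay below all controls, but Zbtb46 alone is a large part of that sum, and the median log2 difference of the 10 genes from the control mean was -0.03 and -0.07 there. The genes did not all go one way: Xcr1 was at 0.302 to 0.541 units in controls, against 3.51, 0.599 and 0.569 in treated livers. Flt3 and Zbtb46, the first markers of the dendritic cell list, were at 1.01 to 1.52 and 11.1 to 13.5 units in controls. In treated livers Flt3 was at 2.79, 0.866 and 0.828 units and Zbtb46 at 11.3, 8.39 and 9.62. Of the B cell list, Ms4a1 was at 0.758 to 2.59 units in controls, and at 0.666 to 2.21 in treated livers.

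T cells of mice are not known for making class II RNA, but the sum of their markers had a pattern over the livers like that of the summed members. That sum (10 genes) was 3.92 to 5.03 units in controls, against 46.9, 8.06 and 10.8 in treated livers, with all 10 genes highest in anti-PD-1 replicate 1. The median log2 difference of the 10 genes from the control mean was 2.11, 0.21 and 0.75 in treated livers. Of these, 2 passed the filter (Cd3e and Cd8a), with 0 called by limma and 2 called higher by DESeq2 (1.08% of all genes). Cd3e was under 1 unit in controls (0.352 to 0.487) and above it in treated livers (7.35, 1.13 and 1.09). It thus passed the filter through the treated livers only, which by itself sets the groups apart. The share over all genes is therefore no measure for it, and its call is no separate support. Kupffer cell markers (10 genes) summed to 230 to 477 units in controls, against 257 to 282 in treated livers, a sum in which the abundant Cd5l weighs most. Gene by gene, 5 of the 10 were lower at an unadjusted p under 0.05 (6.24% of all genes were), with a median log2 difference of -0.43 with and without anti-PD-1 replicate 1. By limma 0 passed the adjusted threshold, with the replicate block 1 did (Cd163; 0.0929% of all genes were lower), and DESeq2 called 3 lower (Cd163, Timd4 and Marco; 0.786% of all genes). Plasma cell markers (5 of 6 genes measured) summed to 298 to 391 units in controls, against 367, 433 and 499 in treated livers, so that replicates 2 and 3 lay above all controls. Most of that sum was Sdc1 (193 to 240 units in controls, against 234, 275 and 346) and Xbp1 (94.9 to 145, against 118, 156 and 151), genes that hepatocytes also express. Jchain, which joins secreted antibody chains, was at 0.804 to 9.52 units in controls, against 15.1, 1.13 and 1.60. Sums were, for sinusoidal endothelial markers (8 genes), 384 to 421 units in controls and 350 to 400 in treated livers, and for hepatocyte markers (8 genes), 70775 to 92508 and 68606 to 82167. No marker in any of these lists was at 0 reads in any liver. The part of these cell types in the class II values was not tested.

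**Figure D4:**
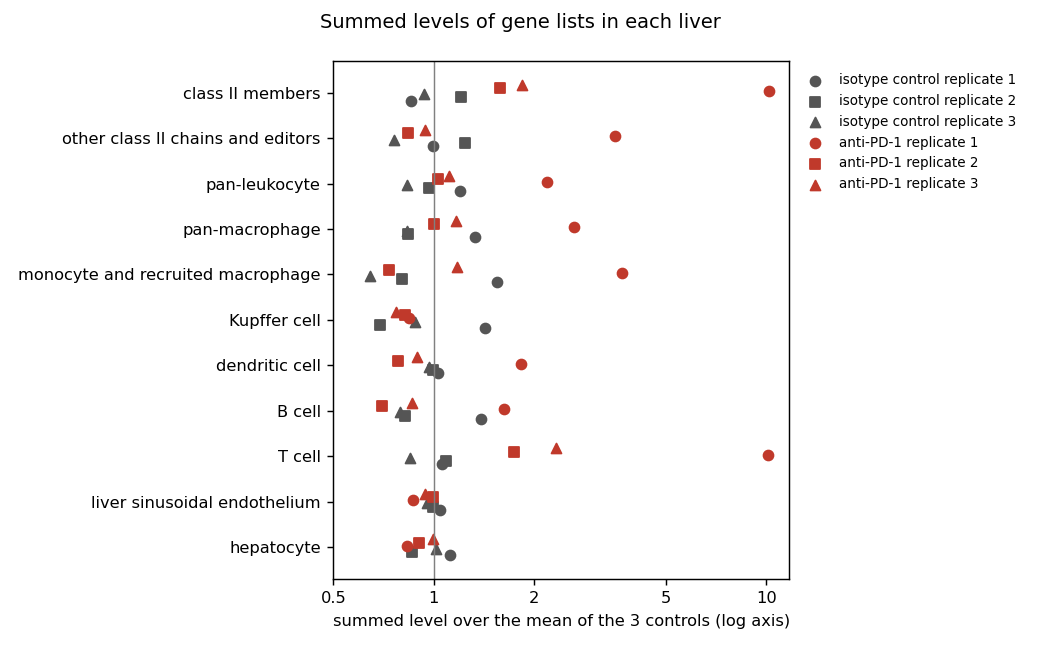
Summed level of each gene list in each liver, divided by the mean of the 3 control livers, on a log axis; the line at 1 is the control mean. Grey points are control and red points anti-PD-1 livers. The class II members and the T cell list reach about 10 times the control mean in anti-PD-1 replicate 1 and lie above all controls in replicates 2 and 3, where the leukocyte, macrophage and dendritic cell lists do not.

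Set against single markers within each liver, Cd74 over Ptprc, the gene of the pan-leukocyte protein CD45, was 1.09, 2.16 and 1.66 in controls, against 4.90, 2.95 and 3.39 in treated livers. Cd74 over Csf1r, a macrophage receptor gene, was 0.563, 1.39 and 0.909 in controls, against 4.25, 1.73 and 1.67 in treated livers, and Cd74 over the dendritic cell gene Clec9a was 12.8 to 23.0 in controls, with 62.0, 35.9 and 40.8 in treated livers. Of 9 such ratios 7 were separated between groups, each at the smallest exact permutation p of 0.1 (0.129 after Benjamini-Hochberg adjustment over the 9). The ratio to Spi1 was among those that overlapped. All 9 ratios share Cd74, which by itself was separated between the groups, so they are not independent of each other. The share of separated ratios over other genes was not computed. For the chains the sum of H2-Aa, H2-Ab1 and H2-Eb1 was separated over Ptprc and Itgax, and overlapped over Adgre1, Csf1r, C1qb and Clec9a. Whether Cd74 and the chains differ in this respect was not tested.

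The 8 tested genes whose pattern over the 6 livers was most like the members' mean standardised log2 level included Acvrl1 (Pearson r = 0.998), Tlr9 (0.994), Arhgap15 (0.993), Gbp4 (0.993), Cyfip2 (0.990), Cd3e (0.990) and Gpr141 (0.989). Of 13983 other genes tested, 147 (1.05%) had an r over 0.95. Without anti-PD-1 replicate 1, over 5 livers, r was 0.813 to 0.973 for these 8 genes. Gbp4, an interferon-inducible GTPase gene, was at 5.98 to 7.63 units in controls, against 54.8, 11 and 9.99 in treated livers, and Tlr9, an endosomal DNA sensor gene, at 1.06 to 1.57 and 5.67, 1.46 and 1.81.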

How the data were processed

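Total RNA was isolated with TRIzol, depleted of ribosomal RNA and made into directional libraries, per the labels' protocols. Trimmomatic 0.38, RSEM 1.3.0, Bowtie2, edgeR and the build GRCm39 are listed in the submitters' processing notes, with no role given. The authors deposited a normalized signal for each gene in each library. All of it (100% of values, within 0.001 read) was whole multiples of 1 step per library, and trimmed-mean factors recomputed from the recovered reads equalled those implied by the columns, so the values were taken as CPM of a scaled library. Symbols matched 21407 of 21512 identifiers. H2-Ea was not analysed here.

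limma 3.58.1 (R 4.3.3, intensity trend, two-sided) was fitted to log2(value + 0.5) of the 13990 genes that reached 1 unit in 3 or more libraries, with Benjamini-Hochberg adjustment over those genes and a threshold of 0.05. Differences are on that log2 scale, which understates low genes. Alternatives changed the pseudocount, the filter, the scaling and the trend and left out each library; edgeR 4.0.16 and DESeq2 1.42.0 took the recovered reads. The fits were tested on simulated data. The labels give replicate numbers 1 to 3 in both groups but tie them to no litter or day. Same-numbered libraries deviated together (r = 0.15, 0.13 and 0.25), and unlike-numbered ones had r from -0.219 to 0.0631. Equal numbers were therefore taken as pairs, on the values alone. The main fit, which has no block, was repeated with one. The blocked fit tests the same values from which the pairs were taken, so its calls are no separate support. The limma p-values set the group difference against the spread between these mice, moderated over the genes tested. In the blocked fit that spread is the one left after the replicate numbers.

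Members and gene lists were chosen with earlier results of these data known. Named genes are the members, up to 4 genes per list with the smallest p, the first 2 markers of each cell type list and the 8 genes most like the members. Rfx5, Rfxap, Ifng, Irf1, Marchf1, H2-Oa, H2-Eb2, Xcr1, Cd5l, Dexi and Brd2 stand outside that rule and were chosen after their values were seen. Some genes that the rule names are not reported here. Pax5 and Cd4 are in 2 lists each. Stellate cell markers summed to 775 to 1021 units in controls and 775 to 1214 in treated livers, and cholangiocyte markers to 94.9 to 238 and 78.8 to 137.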

Additional observations from a re-analysis of the deposited data

How the results depend on the processing

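Over 16 alternative settings the log2 differences of the members were positive in 110 of 111 fitted values. All settings refit the same livers, and anti-PD-1 replicate 1 is in each of them except the setting that leaves it out. The tally is therefore no separate support for the direction. The value that was not positive was that of Ciita without anti-PD-1 replicate 1 (-0.16, in a range of -0.16 to 1.15 when libraries were left out in turn). In that setting H2-Ob also turned (-0.19, in a range of -0.19 to 0.60). H2-DMa could not be fitted with the filter of 5 units, which it does not pass. The members' median ranged from 0.60 to 1.91 when libraries were left out in turn, and was 1.96 by edgeR and 1.97 by DESeq2. The count of members called was 0 in all settings except DESeq2, where it was 1. Over all genes the counts were 27 higher and 13 lower with the replicate block, 0 higher by edgeR, and 151 higher and 110 lower by DESeq2, and 0 to 24 higher and 0 to 6 lower when libraries were left out in turn (24 and 6 without anti-PD-1 replicate 1, 2 higher without isotype control replicate 2, 0 higher without anti-PD-1 replicate 3). The cause was not tested. The block changed no call of a member or of the other genes whose adjusted p is given. DESeq2 called H2-DMb1 (1.80) and Ptpn2 (0.57). With 59 to 107 reads in controls, H2-DMa, H2-DMb1 and Ciita carry the most counting error.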
